A study of Mus musculus with 8 samples.

Results

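The genes described here encode the nuclear-coded subunits and some assembly factors of the 5 complexes of oxidative phosphorylation. They were chosen by name: every gene whose single platform symbol begins with Nduf, Sdha, Sdhb, Sdhc, Sdhd, Uqcr, Atp5, or Cox followed by a digit from 4 to 8. Each gene was represented by its brightest probe set (the group of probes that reports a transcript), by the mean over all arrays. The rule gave 94 genes of 18193 with a single symbol. By role, 42 belong to complex I, 8 to complex II, 8 to complex III, 19 to complex IV and 17 to complex V. No measured difference entered the choice.

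RNA came from whole mouse retina at postnatal day 40, from animals of the strain labelled BALB/c AJ. The retina was described as dissected free of the retinal pigment epithelium (RPE). The 8 arrays carry 3 labels for the Nxnl1 gene: 3 arrays wild type (wt/wt), 2 heterozygous (ko/wt) and 3 homozygous (ko/ko). The rod and cone gene Nxnl1 encodes a thioredoxin-like protein known as rod-derived cone viability factor, and the comparison asks which transcripts differ in its absence. The series' design names 9 samples; of the heterozygous triplicate 1 sample was not analysed here. The labels do not state whether each array had its own animal, so p-values below reflect only the spread among these samples, which could be technical in origin.

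The respiratory chain sits in the inner mitochondrial membrane. Complexes I and II pass electrons from NADH and succinate to ubiquinone, complex III passes them on to cytochrome c, and complex IV reduces oxygen, while complexes I, III and IV pump protons. Complex V, the ATP synthase, uses the proton gradient to make ATP. Photoreceptors pack mitochondria into their inner segments and are among the most oxygen-consuming cells of the body, so the retina expresses these genes strongly.

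The arrays have to be described before the genes. Nxnl1 read 9.22, 8.87 and 8.65 on wild-type arrays 1 to 3 at its brighter probe set, on the log2 scale used throughout. It read 8.65 and 6.75 on heterozygous arrays 1 and 2, and 6.13, 8.76 and 6.13 on homozygous arrays 1 to 3. Homozygous array 2 therefore matched wild type in Nxnl1, against its label. Heterozygous array 2 read nearer to homozygous arrays 1 and 3 than to heterozygous array 1. At the other probe set heterozygous array 2 read 5.48, homozygous arrays 1 and 3 read 5.47 and 5.56, and homozygous array 2 read 6.62. The wild-type arrays read 6.21, 6.76 and 6.70 there, and heterozygous array 1 read 6.79. Results are given with and without this pair, heterozygous array 2 and homozygous array 2. The 6 measured markers of rod photoreceptors averaged between 13.74 and 13.93 on every array. The actin control probe sets, whose 5' minus 3' difference becomes more negative as RNA degrades, differed by -1.81, -1.04 and -0.80 on the wild-type arrays, by -0.90 and -0.71 on the heterozygous arrays and by -1.74, -0.69 and -1.26 on the homozygous arrays. Wild-type array 1 and homozygous array 1 thus had the most negative differences.

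No gene of oxidative phosphorylation differed between genotype labels at an adjusted p under 0.05. Homozygous and wild-type arrays differed over the 94 genes by a median log2 value of -0.0031, with 45 genes above 0 and 49 below. For single genes the difference ran from -0.52 to 0.22, where a log2 difference of 1 is a doubling, and the median SE was 0.12. For 82 of the 94 genes the 95% confidence interval of the difference lay within 0.5 log2 units on either side of 0. The same held for 15191 of all 18193 genes. In whole-tissue RNA a smaller number of cells of a type and less RNA per cell cannot be told apart.

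Limma called 0 of 45037 probe sets in each of the 3 comparisons (0% of all tested), with a smallest adjusted p of 0.9999 for homozygous against wild type. At an unadjusted p under 0.05 the same test had 411 probe sets for homozygous against wild type (0.913%), 516 for heterozygous against wild type (1.15%) and 405 for homozygous against heterozygous (0.899%). Of the 94 genes only Cox8b was among them, as lower in the homozygous group. The shares of all genes at that level were 0.621% higher and 0.22% lower for homozygous against wild type, 0.451% and 0.72% for heterozygous against wild type, and 0.632% and 0.176% for homozygous against heterozygous. Over all 18193 genes the median difference of homozygous against wild type was 0.024, and 60.5% of genes lay above 0. With the doubted pair of arrays left out, the median of the 94 genes was 0.014 with 51 above 0, and the only gene at an unadjusted p under 0.05 was Ndufb4, at -0.55 (limma p 0.0399).

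**Figure D1:**
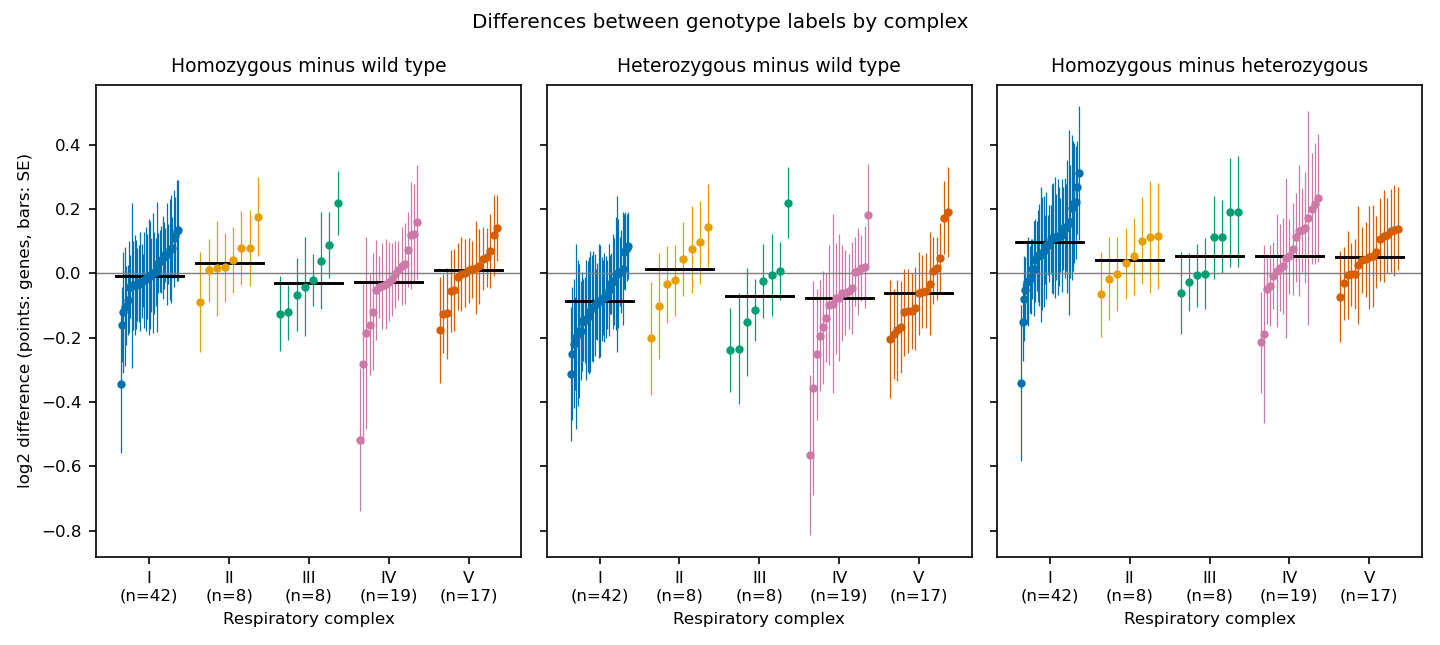
Log2 differences between genotype labels for the 94 genes by respiratory complex, with points for genes, thin bars for the SE and black lines for the median of a complex. The medians of homozygous minus wild type lie close to 0 in all 5 complexes, and the lowest point of the left panel, at -0.52, is Cox8b.

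Every complex had a median near 0 for homozygous against wild type: -0.0082 for complex I, 0.031 for complex II, -0.031 for complex III, -0.026 for complex IV and 0.0097 for complex V. For heterozygous against wild type, which uses the same 3 wild-type arrays, the medians were -0.086, 0.012, -0.070, -0.076 and -0.062 in that order. Over all 94 genes that comparison had a median of -0.076 with 24 genes above 0 and 70 below, where all genes had a median of -0.0067 and 47.6% above 0. Of the accessory subunits of complex I, 26 of 28 lay below 0. Homozygous minus heterozygous had a median of 0.071 with 69 genes above 0, against 63.7% of all genes, and 53 without homozygous array 1. In that comparison the arrays did not overlap for 5 genes as higher (7.58% of all genes) and 2 as lower (3.42%).

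These list-wide shifts depended on single arrays. Without wild-type array 1, 48 of the 94 genes lay above 0 for heterozygous against wild type, and the median was 0.0022. For homozygous against wild type, 74 of 94 lay above 0 without wild-type array 1 (median 0.063) and 22 of 94 without homozygous array 1 (median -0.064). Over all genes the shares above 0 in those fits were 65.5% and 46.1%. With both arrays left out, 49 of the 94 lay above 0 and the median was 0.0023. Leaving out the doubted pair keeps only heterozygous array 1 in its group. For heterozygous against wild type, 14 of the 94 then lay above 0 (median -0.11), against 48.5% of all genes. For homozygous against heterozygous, 74 of the 94 then lay above 0 (median 0.11), against 62.1% of all genes.

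Many of the genes were high or low on the same arrays. Wild-type array 1 held the highest of the 8 values for 39 of the 94 genes (41.5%), against 15.7% of all genes. Homozygous array 1 held the highest value for 30 (31.9%, against 34.7% of all genes), and homozygous array 3 for 0 (against 8.97%). Lowest values fell on wild-type array 3 for 31 genes (33%, against 19.7% of all genes), on homozygous array 3 for 24 (25.5%, against 11.7%) and on heterozygous array 1 for 22 (23.4%, against 11.6%). The median deviation of the 94 genes from their own means was 0.18, 0.00018 and -0.10 on the wild-type arrays. It was -0.10 and -0.024 on the heterozygous arrays and 0.14, 0.019 and -0.089 on the homozygous arrays. Wild-type array 1 and homozygous array 1 were thus the high arrays for the 94 genes, and each lay in a different genotype group. Over all genes the median deviation was 0.037 on wild-type array 1 and 0.078 on homozygous array 1. Homozygous array 1 was therefore high for all genes and not only for these.

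**Figure D2:**
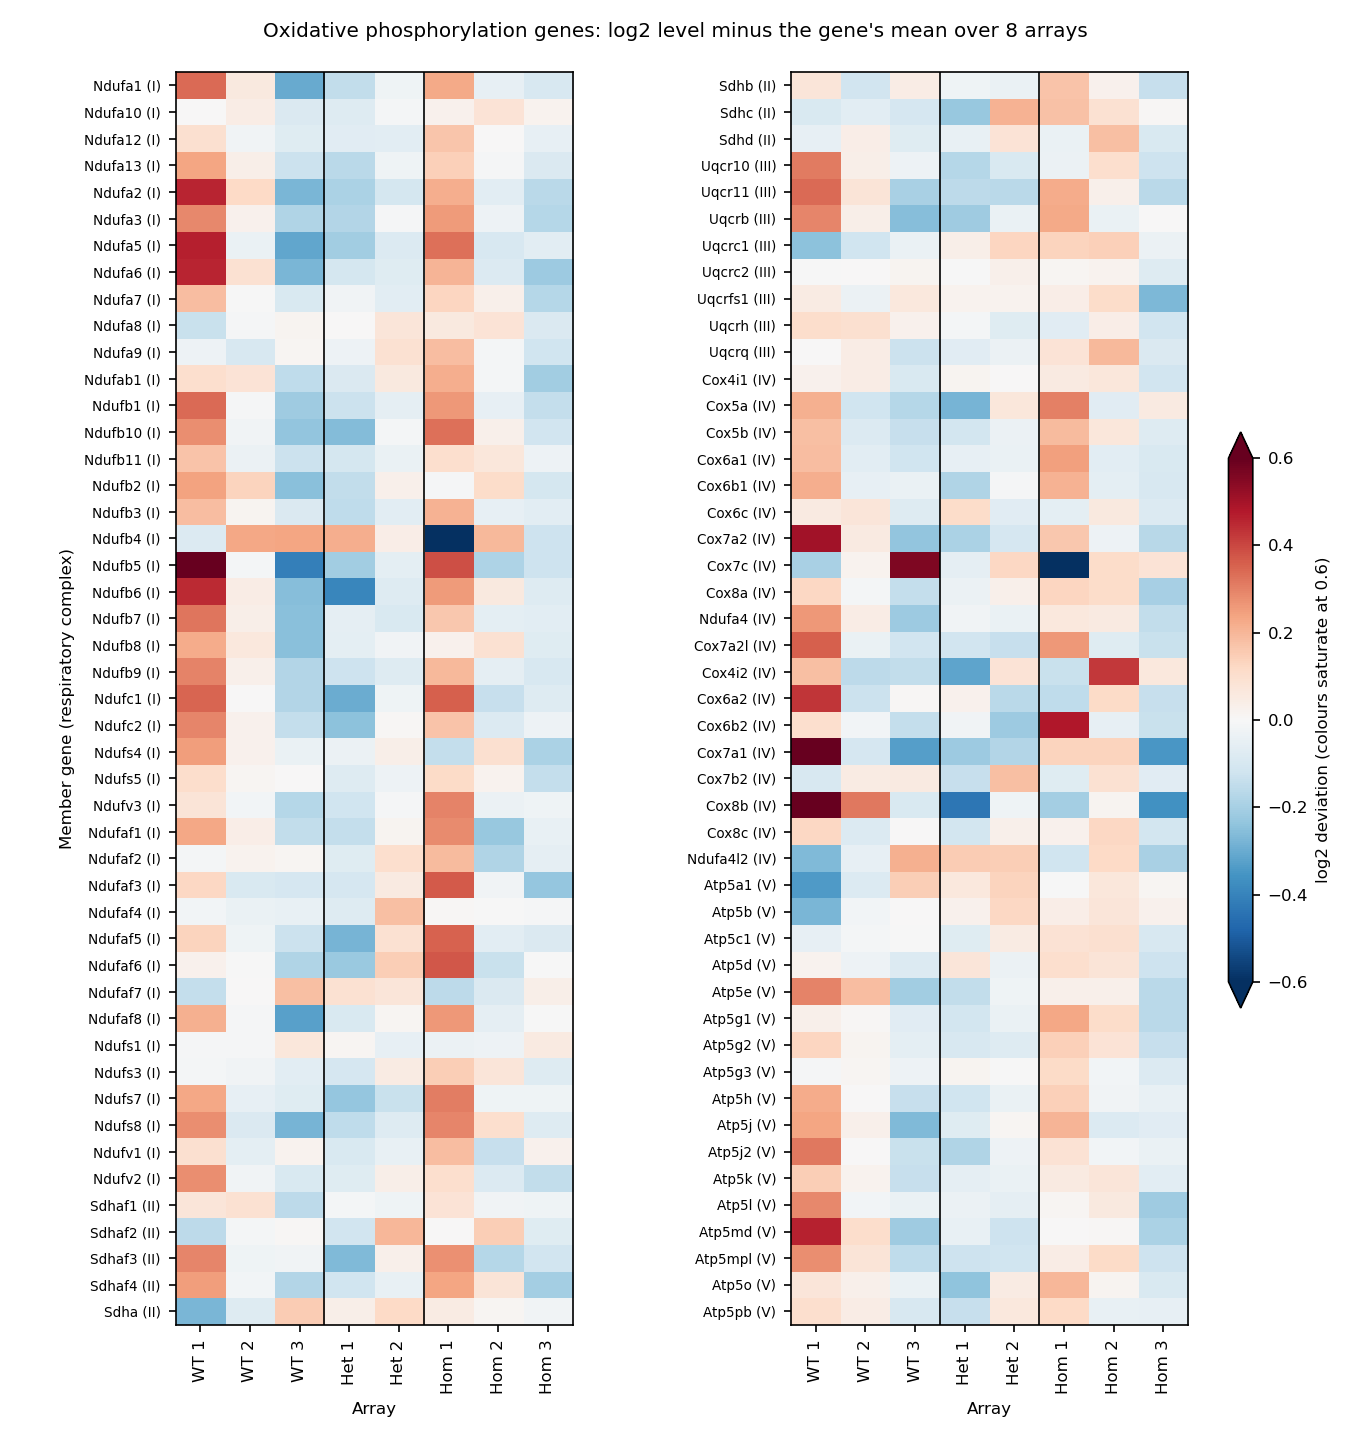
Level of each of the 94 genes on each array, as the log2 deviation from the gene's own mean over 8 arrays, with the complex in brackets and black lines between genotype labels. Red columns at wild-type array 1 and homozygous array 1 run through most of complex I, with Cox7c, Ndufb4, Sdha, Atp5a1 and Atp5b among the genes of the opposite colour on 1 or both of them.

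Complex I held clear examples of this pattern. Ndufb5, an accessory subunit of its membrane arm, read 11.62, 11.00 and 10.60 (wild type), 10.80 and 10.95 (heterozygous) and 11.39, 10.82 and 10.89 (homozygous). Ndufa5, an accessory subunit of the matrix arm, read 11.29, 10.79 and 10.52, then 10.62 and 10.74, then 11.16, 10.73 and 10.76 in the same order. In both genes the 2 highest arrays were wild type 1 and homozygous 1, so the groups overlapped and the differences of homozygous against wild type were -0.038 (SE 0.26) and 0.018 (SE 0.20). Cox7a2, a widely expressed subunit of complex IV, was also highest on these arrays, at 12.81 and 12.47 against 12.07 to 12.36 on the 6 others.

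The relation to the actin difference was fitted after this pattern had been seen, with the groups kept in the model. A negative slope, a higher level where the actin difference was more negative, was found for 72 of the 94 genes (76.6%, against 64.7% of all genes), and for 36 of the 42 of complex I. The median slope was -0.25 log2 units per unit of the actin difference in complex I and 0.016 in complex III. In limma, 4 of the 94 genes passed the adjusted threshold. Ndufb5 had a slope of -0.72 (SE 0.15, adjusted p 0.024) and Ndufa5 one of -0.55 (SE 0.13, adjusted p 0.035). In this direction 7.42% of all genes were called. The slopes were smaller at the other probe sets of these genes. They were -0.20 for Ndufb5 (mean level 10.95, against 11.01) and -0.38 for Ndufa5 (mean level 10.06, against 10.83). Cox7c rose with the difference at 0.67 (SE 0.16, adjusted p 0.035) and so did Ndufb4 at 0.57 (SE 0.15, adjusted p 0.045), as did 1.18% of all genes. The Ndufb4 probe set was dim, with a mean of 6.07. Brighter probe sets that Ndufb4 shares with related copies were highest on wild-type array 1, at 10.99 and 11.14. They read 10.68 and 10.90 on homozygous array 1. Without wild-type array 1 or without homozygous array 1, 0 of the 94 genes passed. The count was 2 without wild-type array 2, 1 without wild-type array 3 and 1 without homozygous array 2. Calls over all probe sets were also fewer without wild-type array 1 or without homozygous array 1, as given in the last section. The part of RNA quality in the array pattern was not tested beyond this slope.

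**Figure D3:**
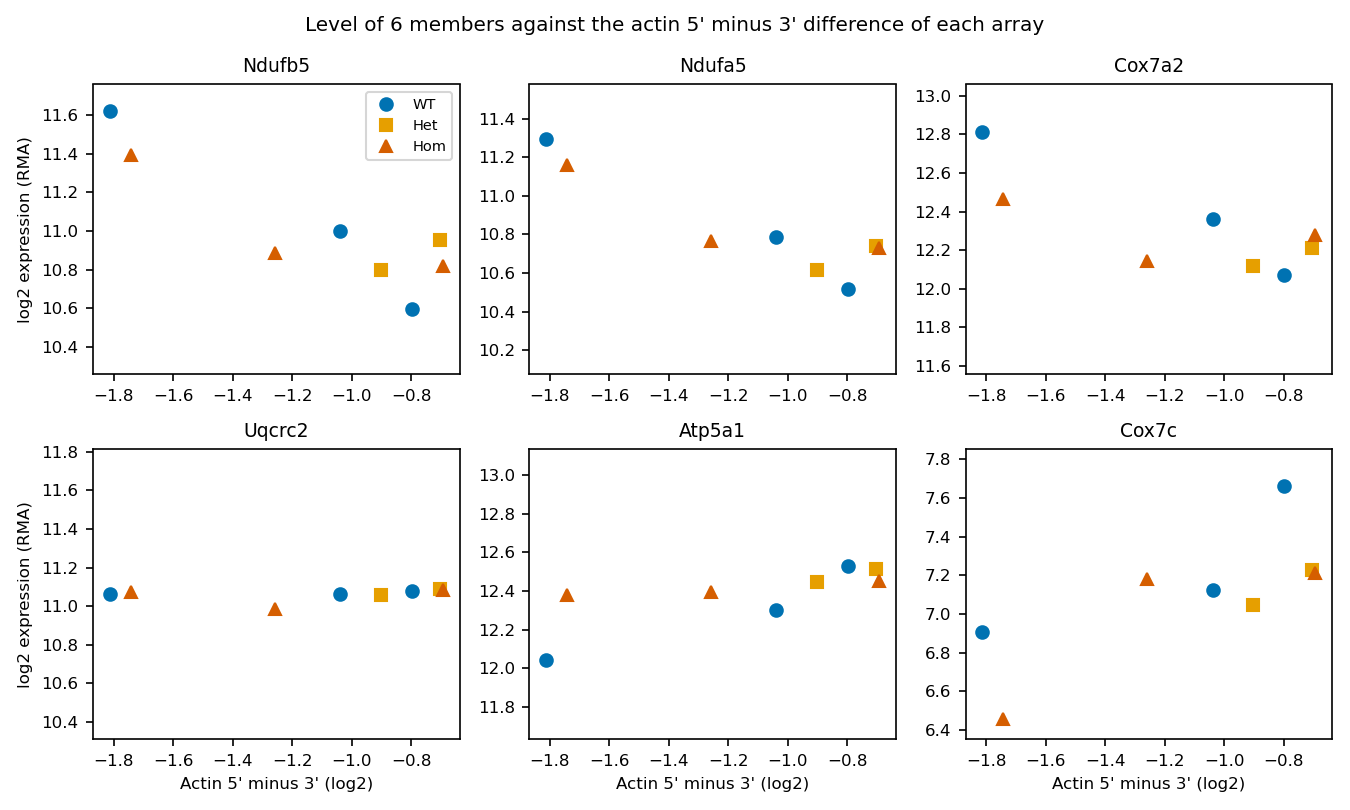
Log2 level of 6 genes (vertical axes, all of the same height in log2 units) against the log2 difference between 5' and 3' actin control probe sets (horizontal axes), with 1 point per array and shapes for the genotype label. Ndufb5, Ndufa5 and Cox7a2 are highest at the 2 arrays furthest left, Cox7c is lowest there, and Atp5a1 is lowest at 1 of them. Uqcrc2 stays between 10.98 and 11.09 at the probe set drawn, its brightest.

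Complex I oxidises NADH. Its 6 measured core subunits, which carry the flavin or the iron-sulphur clusters or line the path to ubiquinone, differed by -0.10 to 0.13 between homozygous and wild-type arrays. Ndufs7, which holds the last cluster before ubiquinone, read 11.29, 11.01 and 10.99 (wild type), 10.83 and 10.93 (heterozygous) and 11.36, 11.03 and 11.03 (homozygous). At this probe set both heterozygous arrays lay below the 6 others. The difference was -0.22 against wild type (SE 0.15, limma p 0.171) and 0.27 for homozygous against heterozygous (limma p 0.103). The other probe set of Ndufs7, with a mean of 10.76, had the reverse order. There the heterozygous arrays, at 10.82 and 10.80, lay above the wild-type arrays at 10.63, 10.72 and 10.74, a difference of 0.11. Across the 94 genes, 6 had both heterozygous arrays below all wild-type arrays, as did 8.03% of all genes, and 2 had both above, as did 6.95%.

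Of the accessory subunits, which surround and stabilise the core, 9 of 28 lay above 0 in the homozygous group. Ndufs4, loss of which causes Leigh-like disease in mice, read 9.80, 9.58 and 9.51 (wild type), 9.51 and 9.58 (heterozygous) and 9.41, 9.65 and 9.36 (homozygous) (-0.16, SE 0.12, limma p 0.209). The groups overlapped. Ndufv3, a small subunit beside the NADH-binding site, read 11.93, 11.84 and 11.68, then 11.74 and 11.85, then 12.15, 11.82 and 11.83 (0.12, SE 0.12, limma p 0.366), and only homozygous array 1 lay above all wild-type arrays.

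Ndufb4 had the most negative difference of complex I, and its measurement was limited by the annotation. The probe set with its single symbol read 5.98, 6.30 and 6.31 (wild type), 6.28 and 6.11 (heterozygous) and 5.36, 6.26 and 5.94 (homozygous) (-0.34, SE 0.22, limma p 0.151). Homozygous array 1 stood lowest. A pair of brighter probe sets shared by Ndufb4 and related copies, left out of the 94 by the single-symbol rule, averaged 10.69 and 10.93 over all arrays and differed by -0.14 (limma p 0.336) and -0.18 (limma p 0.153). In all, 10 probe sets of these families named several genes and were left out.

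The 8 assembly factors help to build complex I, and 5 of the 8 lay above 0 in the homozygous group. Ndufaf4 was the 1 factor whose homozygous arrays all lay above wild type, by 0.032 (SE 0.093), a gap smaller than its SE. Ndufa13 and Ndufb7, complex I subunits that share chromosome 8 with Nxnl1, differed by -0.032 (SE 0.12) and -0.021 (SE 0.15). Cox4i1, the main isoform of a complex IV subunit and on the same chromosome, differed by 0.0092 (SE 0.093).

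Complex II, succinate dehydrogenase, also belongs to the citrate cycle. In the homozygous group 7 of its 8 genes lay above 0, against 60.5% of all genes. The count was 7 without wild-type array 1, 5 without the doubted pair and 4 without homozygous array 1. Sdhc, a membrane anchor, read 10.31, 10.34 and 10.30 (wild type), 10.17 and 10.61 (heterozygous) and 10.58, 10.49 and 10.41 (homozygous). All 3 homozygous arrays lay above wild type (0.18, SE 0.12, limma p 0.184), and the difference was 0.18 (SE 0.11) without the doubted pair of arrays. The heterozygous arrays lay on both sides of wild type.

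Sdha, the flavoprotein that oxidises succinate, read 11.24, 11.44 and 11.67 (wild type), 11.55 and 11.64 (heterozygous) and 11.57, 11.53 and 11.49 (homozygous) (0.080, SE 0.12, limma p 0.517). Its lowest value was on wild-type array 1, and the difference was -0.023 without that array. Another of its 4 probe sets, with a mean of 10.38, was second highest on wild-type array 1, at 10.55. Sdhaf2, which helps to attach the flavin to Sdha, differed by 0.079 (SE 0.12, limma p 0.511). Sdhaf3, a factor for the iron-sulphur subunit, differed by -0.20 in the heterozygous group (SE 0.18, limma p 0.281).

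Complex III had the gene nearest to the threshold among those above wild type. Uqcrc1, a core subunit on the matrix side, read 11.21, 11.34 and 11.42 (wild type), 11.50 and 11.59 (heterozygous) and 11.60, 11.61 and 11.43 (homozygous). All 5 arrays with a mutant label lay above all 3 wild-type arrays, by 0.22 for homozygous (SE 0.099, limma p 0.0581, adjusted p 0.9999) and 0.22 for heterozygous (SE 0.11, limma p 0.0818). The closest pair of values, homozygous array 3 and wild-type array 3, differed by less than 0.01. For homozygous against wild type it was 0.16 (limma p 0.181) without wild-type array 1 and 0.19 (limma p 0.171) without the doubted pair.

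Atp5b, the catalytic beta subunit of complex V, was the other gene of the 94 with this order, which 1.08% of all genes had. It read 13.01, 13.27 and 13.29 (wild type), 13.31 and 13.41 (heterozygous) and 13.33, 13.36 and 13.31 (homozygous). The difference was 0.14 for homozygous (SE 0.10, limma p 0.202) and 0.17 for heterozygous (SE 0.11, limma p 0.167), and 0.051 for homozygous without wild-type array 1, which stood lowest. None of the 94 genes had all 5 arrays below wild type, an order that 0.682% of all genes had. Homozygous and wild-type arrays did not overlap for 4 of the 94 genes, Ndufaf4, Sdhc, Uqcrc1 and Atp5b, all higher in the homozygous group, as were 3.25% of all genes. None was lower without overlap, as 1.58% of all genes were.

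The remaining subunits of complex III differed in both directions. Uqcrh, the acidic hinge protein that binds cytochrome c1, differed by -0.12 (SE 0.087, limma p 0.197) in the homozygous group. Uqcr10, a small membrane subunit, read 11.01, 10.73 and 10.66 (wild type), 10.52 and 10.60 (heterozygous) and 10.66, 10.79 and 10.57 (homozygous) (-0.13, SE 0.12, limma p 0.31). Its heterozygous arrays lay below wild type and its homozygous arrays overlapped it. Uqcrc2, the partner of Uqcrc1 in the core, had at its brightest probe set the narrowest range of the 94 genes, 0.11 over 8 arrays. Its other probe set, with a mean of 10.95, ran from 10.72 on heterozygous array 1 to 11.20 on wild-type array 1. Uqcrb, which helps to bind ubiquinone, differed by 0.19 between homozygous and heterozygous arrays (SE 0.17).

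Complex IV, cytochrome c oxidase, has subunits with paired isoforms, a common one and one restricted to muscle, lung, testis or other tissues. The 10 common subunits had a median difference of -0.0082 between homozygous and wild-type arrays, with 5 above 0. Cox7c, a small common subunit, was measured here at a dim probe set that read 6.91, 7.13 and 7.66 (wild type), 7.05 and 7.23 (heterozygous) and 6.45, 7.21 and 7.18 (homozygous) (-0.28, SE 0.25, limma p 0.287). Homozygous array 1 was the lowest and wild-type array 3 the highest.

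Cox8b, the isoform of subunit VIII found in heart and skeletal muscle, had the largest difference of the 94 genes. It read 8.01, 7.54 and 7.13 (wild type), 6.79 and 7.20 (heterozygous) and 7.02, 7.24 and 6.86 (homozygous). The means were 7.56 ± 0.44 (SD, n = 3) in wild type, 6.99 ± 0.29 (SD, n = 2) and 7.04 ± 0.19 (SD, n = 3). The difference was -0.52 for homozygous (SE 0.22, limma p 0.0472, adjusted p 0.9999) and -0.57 for heterozygous (SE 0.25, limma p 0.0514). Wild-type array 3 lay within the range of the mutant-labelled arrays, so the groups overlapped. Without wild-type array 1 the homozygous arrays differed from wild type by -0.29 (SE 0.19, limma p 0.156), and without the doubted pair it was -0.62 (SE 0.26, limma p 0.0532).

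Markers of skeletal muscle stood high on the same array. Of 18 such genes 17 were measured, and 10 of the 17 had their highest value on wild-type array 1, against 15.7% of all genes. Myh1, Mb and Eno3 were among the markers highest on another array. Their summed signal, as log2, was 11.01, 10.19 and 10.08 on the wild-type arrays, 10.03 to 10.14 on the heterozygous arrays and 10.12 to 10.23 on the homozygous arrays. Tnnc2, the fast troponin C, read 7.78 on wild-type array 1 and 5.06 to 5.38 on the 7 others, and Ckm, muscle creatine kinase, read 7.98 there and 6.28 to 6.58 elsewhere. On wild-type array 2, Cox8b read 7.54, above all mutant-labelled arrays. On wild-type arrays 2 and 3 the summed muscle signal lay within the range of the mutant-labelled arrays. With them alone the Cox8b difference for homozygous against wild type is the -0.29 given above (SE 0.19, limma p 0.156). The part of muscle tissue in the Cox8b difference was not tested.

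**Figure D4:**
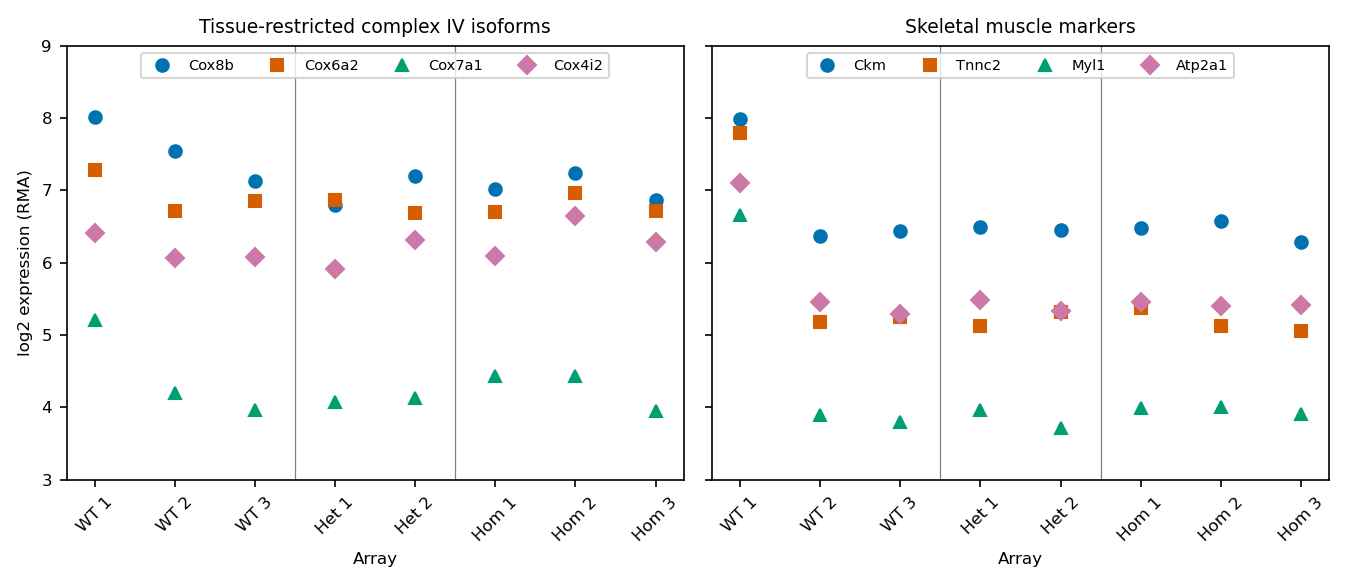
Log2 level of 4 tissue-restricted isoforms of complex IV subunits (left) and 4 skeletal muscle markers (right) on each array. All 4 muscle markers stand apart on wild-type array 1, Cox7a1 and Cox6a2 are also highest there, and Cox8b spreads from 7.13 to 8.01 over the 3 wild-type arrays.

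The other muscle isoforms were highest on wild-type array 1 too. Cox7a1, of heart and skeletal muscle, read 5.20, 4.20 and 3.97 (wild type), 4.08 and 4.12 (heterozygous) and 4.43, 4.43 and 3.95 (homozygous) (-0.18, SE 0.30). Cox6a2, also of striated muscle, read 7.27, 6.71 and 6.85, then 6.87 and 6.68, then 6.69, 6.96 and 6.71 (-0.16, SE 0.16, limma p 0.339). Without that array the differences were 0.19 (SE 0.17) and 0.0045 (SE 0.13), so both lost their direction.

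Isoforms of other tissues had patterns of their own. Cox4i2, the isoform of lung, differed by 0.16 (SE 0.18) and was highest on homozygous array 2, at 6.65. Without the doubted pair of arrays its difference was 0.0050 (SE 0.15). Cox6b2 and Cox8c, isoforms of testis, differed by 0.12 (SE 0.17) and -0.0029 (SE 0.10). Cox6b2 was highest on homozygous array 1, at 7.83. Cox7b2 was among the dimmest probe sets, between 3.17 and 3.49 on all arrays, and differed by -0.019 (SE 0.11). Ndufa4l2, a hypoxia-induced relative of the complex IV subunit Ndufa4, read 6.53 and 6.52 on the heterozygous arrays, above the 3 homozygous arrays at 6.26, 6.49 and 6.18 (homozygous minus heterozygous -0.21, SE 0.16, limma p 0.206).

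Complex V couples a catalytic F1 part to a membrane part that conducts protons. Atp5a1, the alpha subunit of F1, read 12.04, 12.30 and 12.53 (wild type), 12.45 and 12.52 (heterozygous) and 12.38, 12.45 and 12.40 (homozygous) (0.12, SE 0.13, limma p 0.374). Like Sdha, Uqcrc1 and Atp5b it was lowest on wild-type array 1, where 7 of the 94 genes had their lowest value. This held for 1 of its 3 probe sets only: the second, with a mean of 12.10, read 12.10, 12.03 and 12.04 in wild type.

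The 12 genes of the membrane part and the stalks had a median of -0.0013 for homozygous against wild type, with 6 above 0, and of -0.11 for heterozygous against wild type, with 1 above 0. Atp5md, a small membrane subunit, read 10.71, 10.35 and 10.04 (wild type), 10.20 and 10.13 (heterozygous) and 10.25, 10.26 and 10.06 (homozygous) (-0.18, SE 0.16, limma p 0.311). Atp5l, subunit g, differed by -0.13 (SE 0.12, limma p 0.332). Both were highest on wild-type array 1. Atp5o, a stalk subunit that confers oligomycin sensitivity, differed by 0.14 between homozygous and heterozygous arrays (SE 0.13), and by -0.0067 without heterozygous array 1.

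Other genes of the pathway, from lists written by function, gave no call either. None of their members had an unadjusted p under 0.05 in limma for homozygous or heterozygous against wild type. Among carriers of electrons and nucleotides, 5 of 11 lay above 0 for homozygous against wild type. Cycs, the somatic cytochrome c, read 11.76, 11.45 and 11.20 (wild type), 11.12 and 11.43 (heterozygous) and 11.57, 11.42 and 11.30 (homozygous) (-0.039, SE 0.16), highest on wild-type array 1. Of the further assembly factors of complexes II to V 24 of 33 lay above 0, against 60.5% of all genes. For regulators of mitochondrial genes it was 8 of 17, and for citrate cycle enzymes 11 of 16. Homozygous array 1 held the highest value for 15 of the 33 factors, 3 of the 17 regulators and 11 of the 16 enzymes. Over all genes that share was 34.7%. The single measured mitochondrially encoded subunit, ND5 of complex I, differed by -0.15 (SE 0.14).

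Markers of neighbouring tissues also varied. Rpe65, an RPE marker, read between 9.16 and 10.48 on every array, although the retina was described as dissected free of the RPE. The summed signal of 9 RPE and choroid markers, as log2, was 13.60 to 14.06 on the wild-type arrays, 13.38 and 13.41 on the heterozygous arrays and 13.25 to 13.86 on the homozygous arrays. Of these markers 4 had an unadjusted limma p under 0.05 as lower in the heterozygous group, against 0.72% of all genes. Most of the 94 genes also lay below 0 in that group, but not without wild-type array 1. The summed signal of 8 lens markers ran from 8.51 to 11.42 in wild type, from 8.54 to 11.82 in the heterozygous group and from 8.27 to 13.08 in the homozygous group. Their part in the differences was not tested.

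The promoters of the genes were read because many of the genes varied together between arrays. RefSeq windows of the 250 bases before a start, in the assembly GRCm38.p6, were matched for 78 of the 94 genes and gave 83 windows. The letters GCGCA, then any base, then GCGC, a form of the site of nuclear respiratory factor 1 (NRF1), stood on either strand in 13 windows (15.7%), against 6.04% of the windows of all array genes. The letters CCGGAAG, a core of ETS family sites, stood in 16 windows (19.3%), against 10.1%. The letters CAGCTG, an E-box chosen after the windows had been read, stood in 6 (7.23%), against 12.8%. No 2 of these motifs overlap in the stretches printed. A match describes letters only, and it is neither a bound site nor a cause of any difference above.

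Atp5h, Cox6a1 and Sdhd held both the NRF1 and the ETS letters. Their 150 bases before the start are shown with those of the common and muscle isoforms of subunit VIII, Cox8a and Cox8b, the gene with the largest difference. Capitals mark a motif match, and each stretch reads 5′ to 3′ on the gene's strand.
Cox6a1: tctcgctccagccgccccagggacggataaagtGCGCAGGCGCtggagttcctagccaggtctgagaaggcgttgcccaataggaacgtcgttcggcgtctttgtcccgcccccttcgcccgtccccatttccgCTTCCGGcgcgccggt
Atp5h: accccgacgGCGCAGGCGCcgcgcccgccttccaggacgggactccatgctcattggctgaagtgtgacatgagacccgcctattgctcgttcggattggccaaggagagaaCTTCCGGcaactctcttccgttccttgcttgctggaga
Sdhd: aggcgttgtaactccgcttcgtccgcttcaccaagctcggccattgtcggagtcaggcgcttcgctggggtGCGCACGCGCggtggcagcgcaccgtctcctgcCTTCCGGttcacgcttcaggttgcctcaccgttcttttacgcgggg
Cox8a: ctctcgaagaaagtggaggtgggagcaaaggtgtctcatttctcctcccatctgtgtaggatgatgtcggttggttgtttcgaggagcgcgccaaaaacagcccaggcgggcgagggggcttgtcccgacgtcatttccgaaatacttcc
Cox8b: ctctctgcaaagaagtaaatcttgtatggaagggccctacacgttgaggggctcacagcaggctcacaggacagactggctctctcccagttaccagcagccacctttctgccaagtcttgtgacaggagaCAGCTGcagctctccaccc
All 5 genes lie on the minus strand. The stretches are chr5:115348959-115349108 for Cox6a1, chr11:115419920-115420069 for Atp5h, chr9:50603850-50603999 for Sdhd, chr19:7217617-7217766 for Cox8a and chr7:140900447-140900596 for Cox8b. In the first 3, the match upstream is to the NRF1 letters and the second to the ETS letters on the opposite strand. Cox8a has none of the 3 motifs in its stretch, and Cox8b has the E-box letters beginning 19 bases before its start.

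Levels of these 5 genes did not separate the labels. Cox6a1, the common isoform paired with Cox6a2, read 13.54, 13.29 and 13.24 (wild type), 13.31 and 13.32 (heterozygous) and 13.61, 13.29 and 13.26 (homozygous), highest on homozygous array 1 and wild-type array 1. Cox8a read 11.73, 11.59 and 11.46, then 11.56 and 11.63, then 11.73, 11.71 and 11.40, with overlapping groups and a difference of 0.024 (SE 0.12). Atp5h and Sdhd differed by -0.0034 (SE 0.11) and 0.042 (SE 0.10) between homozygous and wild-type arrays.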

How the data were processed

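The authors deposited RMA values on the log2 scale, 1 for each array and probe set; RMA is named in the submitters' processing notes, and its version is not given in the sources used here. RMA corrects background, makes array distributions alike and summarises probes, so values are relative to the bulk of transcripts. The 8 arrays were grouped by their genotype labels. Of 45101 probe sets, 64 controls were left out and 45037 tested. Of these, 34945 had 1 gene symbol in the platform annotation, 932 several and 9160 none. Group means of all 8 arrays were fitted with limma 3.58.1 in R 4.3.3 (5 residual degrees of freedom; eBayes, two-sided), with Benjamini-Hochberg adjustment over 45037 probe sets and a threshold of 0.05. SE is limma's moderated standard error. The number of arrays limits the precision.

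The genes and lists were chosen with earlier results of these data known. Full statistics are given for the 3 genes per complex with the smallest p for homozygous against wild type, the 1 with the smallest for each other comparison, the tissue-restricted isoforms of complex IV, and genes on the chromosome of Nxnl1. Other genes, chosen after their values were seen, illustrate the array pattern. The fits were tested on simulated data.

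All 94 genes matched the reference by gene ID; 41 had 1 probe set and 53 several, and in 28 of the 53 all probe sets shared the sign of homozygous minus wild type. The replicate numbers were checked for pairing.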

Additional observations from a re-analysis of the deposited data

How the results depend on the processing

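Each comparison was refitted under 18 alternatives. No gene named for a comparison passed the adjusted threshold in any of them. The median over the 94 genes moved by less than its spread between arrays of a group (SD 0.12). That SD is larger in size than each of the main medians (-0.0031, -0.076 and 0.071), so this does not show that their direction held. Probe sets called ran from 0 to 1 with 1 array left out, for homozygous and for heterozygous against wild type. The 1, without wild-type replicate 3, was the same probe set in both comparisons and not among the 94 genes. It differed by 6.29 for homozygous and 6.44 for heterozygous against wild type, and the cause was not tested. Replicate numbers were shared between groups, but same-numbered homozygous and wild-type arrays correlated in their deviations at 0.616, 0.23 and -0.0349, so they were not taken as pairs. A replicate block called 0 probe sets in each comparison and gave medians of -0.0031, -0.13 and 0.14.

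Direction reversed at least once for 11 of 33 named results. With 1 array left out, homozygous minus wild type ranged over -0.023 to 0.19 for Sdha, -0.28 to 0.0045 for Cox6a2, -0.073 to 0.23 for Cox6b2, -0.43 to 0.19 for Cox7a1, -0.074 to 0.0094 for Cox7b2, -0.059 to 0.059 for Cox8c, -0.033 to 0.069 for Cox4i1, -0.12 to 0.061 for Ndufa13 and -0.16 to 0.12 for Ndufb7. Homozygous minus heterozygous ranged over -0.11 to 0.32 for Sdhc and -0.0067 to 0.28 for Atp5o. Without the doubted pair, heterozygous and homozygous arrays 2, it was -0.024 for Cox4i1 and 0.015 for Ndufb7, for homozygous against wild type. Without the 2 arrays lowest in the actin difference it was -0.042 for Sdha, 0.051 for Cox6a2, -0.012 for Cox6b2, 0.11 for Cox7a1, 0.046 for Cox8c and 0.048 for Ndufb7. Arrays centred on their medians gave 0.0084 for Cox8c, and averaging a gene's probe sets gave -0.024 for Sdha. The cause was not tested.

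The slope on the actin difference called 4653 of 45037 probe sets, with alternatives chosen after seeing the data. It called 13 without wild-type replicate 1, 2955 without wild-type replicate 3, 1684 without homozygous replicate 1 and 534 without homozygous replicate 2. With the Gapdh difference in its place, 2 of the 94 genes were called. The share of all genes in that fit is not given, so the count is not a result about these genes. A filter on probe sets below the median level left 22519 probe sets and 91 of the 94 genes.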
